A study of Mus musculus with 9 samples.

Results

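Cep19, Ethe1, Ckap4, Ceacam10 and 4930438A08Rik were 5 genes, of 45706 in the table of gene levels, that separated the lungs of mice given anti-PD1 nanocapsules from the lungs of mice given free anti-PD1, and that are not classical neutrophil granule genes. They were chosen by the measured difference between those 2 groups, so that difference is described below without a test. All 5 were present as 1 row each, and all 5 were among the 13248 genes that passed the filter on low values, a TPM of 1 or more in 3 or more of the 9 libraries. TPM, the field's transcripts-per-million unit, is a share of the messenger RNA of a library, corrected for transcript length, so levels of different genes can be set beside each other.

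The study measured poly-A RNA of whole lung in female BALB/c mice, 4 to 6 weeks old, that all carried 4T1 cells, a mouse mammary carcinoma line, injected into the right flank. The PBS group received phosphate-buffered saline, the anti-PD1 group received the free antibody against the immune checkpoint receptor PD-1, and the nanocapsule group received anti-PD1 packed in nanocapsules. Treatment was on day 7 and day 14 after the tumour cells, at 150 µg per mouse for the nanocapsules, and lungs were taken on day 21. The labels do not make clear whether the free antibody had the same dose, so form and dose cannot be told apart in the comparison of the 2. Each group had 3 lungs, and no label names the animals or a batch, so a p-value here reflects only how these libraries spread, which may be technical spread. The study's title names possible immune-related adverse effects in the lung as the question. No group was free of tumour, so every level below is that of a lung in a tumour-bearing mouse.

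Neutrophils are short-lived phagocytes made in the bone marrow, and they gather in the lung in large numbers in mice with 4T1 tumours. While they mature they first make the proteases of the primary granules, such as Elane, and later the surface proteins Ly6g and Cd177 and the gelatinase Mmp9, which is stored in gelatinase granules. Ly6g, Cd177 and Mmp9 served here as the reference for neutrophil RNA. In whole lung, fewer cells of a type and less RNA per cell cannot be told apart.

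The 5 genes have unlike known roles. Cep19 encodes a centrosomal protein that brings the small GTPase RABL2 to the base of the cilium. Ethe1 encodes the mitochondrial persulfide dioxygenase of hydrogen sulfide oxidation. Ckap4, also known as CLIMP-63, encodes a membrane protein that shapes sheets of the endoplasmic reticulum. Ceacam10 belongs to the carcinoembryonic antigen-related cell adhesion molecules, a family of the immunoglobulin superfamily. 4930438A08Rik carries only the name of a RIKEN clone and is annotated as protein coding.

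In the mouse GRCm38 annotation, Cep19 (ENSMUSG00000035790) lies on chromosome 16, 32099800 to 32108069, on the plus strand. Ckap4 (ENSMUSG00000046841) lies on chromosome 10, 84526305 to 84534062, on the minus strand, and 4930438A08Rik (ENSMUSG00000069873) on chromosome 11, 58274799 to 58294289, on the plus strand. Ethe1 (ENSMUSG00000064254) and Ceacam10 (ENSMUSG00000054169) share a stretch of chromosome 7 on the plus strand, at 24587543 to 24608925 and 24777206 to 24784657. Cd177 (ENSMUSG00000052212), 1 of the reference genes, lies between them on the minus strand at 24743983 to 24760311. Its start, at the higher position, lies 16.9 kb before that of Ceacam10, so Cd177 and Ceacam10 begin head to head.

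The 2 neighbours on chromosome 7, Ceacam10 and Cd177, had a correlation of 0.977 over the 9 libraries, which includes the group differences that chose Ceacam10. Over the deviations of each library from its group mean it was 0.805, and 2.73% of tested genes had a higher value with Ceacam10. PBS library 2 was the highest PBS library for both genes, and this value was not computed without it. Whether the 2 genes share control was not tested. The 250 bases before their most upstream RefSeq starts are shown because of the first of these values. Both windows are from GRCm38.p6, are written 5′ to 3′ on the gene's own strand, and have each CpG in capitals. The Ceacam10 window is chr7:24776917-24777166 on the plus strand and the Cd177 window is chr7:24760312-24760561 on the minus strand.
Ceacam10: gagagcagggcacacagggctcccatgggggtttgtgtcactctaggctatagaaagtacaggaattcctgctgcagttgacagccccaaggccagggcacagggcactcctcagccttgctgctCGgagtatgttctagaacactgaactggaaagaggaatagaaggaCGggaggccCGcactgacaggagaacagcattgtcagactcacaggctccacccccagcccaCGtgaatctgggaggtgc
Cd177: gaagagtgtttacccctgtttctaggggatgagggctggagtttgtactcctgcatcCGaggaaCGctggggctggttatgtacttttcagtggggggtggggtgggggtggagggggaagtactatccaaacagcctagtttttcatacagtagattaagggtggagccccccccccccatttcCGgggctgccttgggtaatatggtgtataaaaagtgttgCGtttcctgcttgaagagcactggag
Each window holds 4 CpG, against a median of 6 over 27025 mouse promoter windows of this length. Cep19 also begins head to head with a neighbour, Pigx, a gene of glycosylphosphatidylinositol anchor synthesis. The whole stretch between Pigx and the RefSeq start of Cep19, chr16:32099741-32099788 on the plus strand, is 48 bases long with 7 CpG and is shown because the 2 genes share it.
Cep19 and Pigx: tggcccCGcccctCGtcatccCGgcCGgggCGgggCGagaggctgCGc

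The promoter windows of the 5 genes differed in base composition. CpG numbered 43 in the window of Ckap4, 26 in that of Cep19, 12 in that of Ethe1, 4 in that of Ceacam10 and 1 in that of 4930438A08Rik. The G and C content was 82.4% for Ckap4, 70.4% for Cep19, 60.0% for Ethe1, 57.2% for Ceacam10 and 56.8% for 4930438A08Rik, against a median of 52% over all windows. Letters of 4 motifs were searched on both strands: a C/EBP site (TTGCNNAA), a PU.1 core (GAGGAAG), a RUNX core (TGTGGT) and a TATA box (TATAAA). The only match in the 5 windows was a PU.1 core in Ckap4, from 117 to 111 bases before the RefSeq start, a place that the GENCODE annotation puts inside the first exon of Ckap4. The Ceacam10 window was the only one of the 5 that overlapped no annotated exon. Of all promoter windows, 9.55% held the C/EBP letters, 10.4% the PU.1 letters, 14.2% the RUNX letters and 13.0% the TATA letters. The Cd177 window shown above holds TATAAA from 40 to 35 bases before its start, and the Ceacam10 window holds none of the 4.

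The number of genes at 1 TPM or more was 12349 to 12981 in the PBS, 12746 to 13407 in the anti-PD1 and 12194 to 12595 in the nanocapsule lungs. Mitochondrial transcripts made up 2.37% to 4.38%, 5.01% to 5.76% and 2.22% to 3.3% in that order, highest in the anti-PD1 lungs without overlap. The part of both in the results was not tested. Lung was recognisable in every library: the surfactant gene Sftpc ranged from 343 to 3410 TPM, the club cell gene Scgb1a1 from 2460 to 9960 TPM and the endothelial gene Pecam1 from 12.2 to 44.4 TPM. The neutrophil alarmin genes S100a8 and S100a9 together made up 10.3% to 17.5% of all transcripts. PBS library 2 stood apart within its group, at 16.7% against 12.1% to 12.7% in the other 2 PBS libraries. The table holds no read counts, so depth is unknown.

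Ckap4 was the most abundant of the 5. Its level was 104.9, 140.6 and 104.1 TPM with PBS, 85.9, 75.4 and 81.8 TPM after free anti-PD1, and 142.5, 149.2 and 152.7 TPM after nanocapsules. The 3 groups did not overlap, and PBS library 2 lay just under the nanocapsule lungs. Averaged over the 9 libraries, 91.8% of tested genes had a lower level.

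Ceacam10 reached 77.2, 92.7 and 76.0 TPM with PBS, 56.7, 46.7 and 54.5 TPM after free anti-PD1, and 84.4, 93.5 and 103.9 TPM after nanocapsules. All anti-PD1 lungs were below all others, while PBS library 2 lay inside the range of the nanocapsule lungs. Its mean level exceeded that of 88.2% of tested genes.

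Cep19 stood at 47.4, 53.6 and 46.6 TPM with PBS, 31.1, 33.1 and 32.0 TPM after free anti-PD1, and 52.5, 59.1 and 58.6 TPM after nanocapsules. As for Ceacam10, the anti-PD1 lungs formed the low group and PBS library 2 overlapped the nanocapsule lungs. The anti-PD1 lungs were close to each other, with a mean of 32.1 ± 0.989 TPM (SD, n = 3).

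Ethe1 was measured at 26.7, 32.9 and 32.8 TPM with PBS, 24.9, 25.0 and 24.3 TPM after free anti-PD1, and 41.2, 43.7 and 38.7 TPM after nanocapsules. The nanocapsule lungs were the group that stood away, and PBS library 1 came within 2 TPM of the anti-PD1 lungs. PBS library 2, high for the other 4 genes, was level with PBS library 3 for Ethe1.

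4930438A08Rik was the least abundant, with 26.1, 30.95 and 22.6 TPM with PBS, 19.6, 15.5 and 17.9 TPM after free anti-PD1, and 35.8, 35.2 and 38.5 TPM after nanocapsules. Its groups did not overlap. It was still higher than 71.0% of tested genes in mean level.

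**Figure D1:**
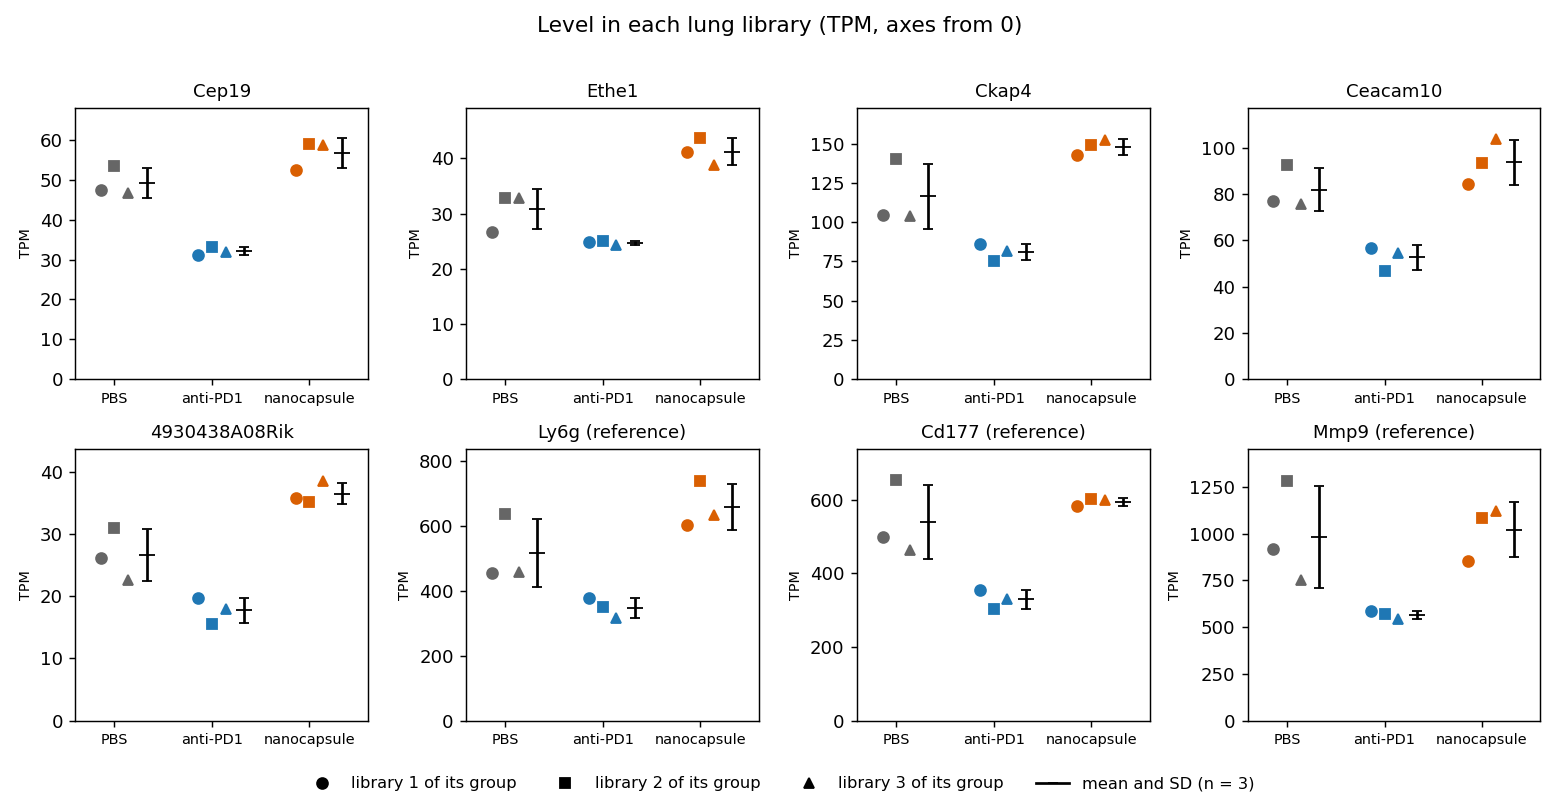
Level of the 5 genes and of the reference genes Ly6g, Cd177 and Mmp9 in each lung library, in TPM on linear axes from 0. Each point is 1 library (circle, square and triangle for libraries 1, 2 and 3 of a group), and the bars give the mean and SD of 3. The anti-PD1 lungs are the lowest group in all 8 panels, and PBS library 2 is the highest PBS library in all 8.

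The order of the group means was anti-PD1, PBS, nanocapsule for each of the 5 genes. For Ckap4 the means were 81.0 ± 5.27, 116 ± 20.8 and 148 ± 5.16 TPM (SD, n = 3 each). For 4930438A08Rik they were 17.7 ± 2.08, 26.6 ± 4.19 and 36.5 ± 1.76 TPM. For Ethe1 they were 24.7 ± 0.352, 30.8 ± 3.56 and 41.2 ± 2.50 TPM. Cep19 and Ceacam10 had PBS and nanocapsule means closer together, at 49.2 ± 3.82 against 56.7 ± 3.68 TPM and 82.0 ± 9.33 against 93.9 ± 9.75 TPM. These last 2 genes were those whose PBS and nanocapsule lungs overlapped.

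Free anti-PD1 was compared with PBS, a contrast that shares the anti-PD1 lungs with the one that chose the genes. All 5 genes were lower in each anti-PD1 lung than in each PBS lung, and 13.4% of all tested genes showed that pattern. On the scale of log2(TPM + 1) the difference was -0.63 (SE 0.12) for Ceacam10, -0.60 (SE 0.09) for Cep19, -0.56 (SE 0.13) for 4930438A08Rik, -0.51 (SE 0.12) for Ckap4 and -0.30 (SE 0.10) for Ethe1. None of the 5 passed: the adjusted p from limma, over all tested genes, ran from 0.156 for Cep19 to 0.229 for Ethe1. At an unadjusted p under 0.05 there were 5 of the 5, and 8.06% of tested genes were lower at that level. The choice of the genes used these anti-PD1 lungs and favoured low values in them, so nothing is read from these counts. In this comparison limma called 1 gene of 13248, which is 0.00755%. The median over all tested genes was 0.04. The reference genes stood at -0.56 for Ly6g, -0.70 for Cd177 and -0.76 for Mmp9. Ethe1, Ckap4 and 4930438A08Rik lay nearer to 0 than each reference gene, but only Ethe1 by more than its SE. These differences were not tested.

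The nanocapsule lungs were compared with the PBS lungs, which shares the nanocapsule lungs with the choosing contrast. 4930438A08Rik stood higher by 0.45 (SE 0.13), Ethe1 by 0.41 (SE 0.10), Ckap4 by 0.36 (SE 0.12), Cep19 by 0.20 (SE 0.09) and Ceacam10 by 0.20 (SE 0.12) on the same scale. Every nanocapsule lung exceeded every PBS lung for 3 of the 5, namely Ethe1, Ckap4 and 4930438A08Rik, and 2.4% of all tested genes showed that pattern. None of the 5 passed limma's test, with adjusted p from 0.353 for Ethe1 to 0.586 for Ceacam10, and 0.00755% of tested genes were called. At an unadjusted p under 0.05 there were 3 of the 5, and 1.22% of tested genes were higher at that level. The choice of the genes used these nanocapsule lungs and favoured high values in them, so nothing is read from these counts. The median of all tested genes was -0.11. With median-of-ratios scaling Cep19 stood at 0.32 and Ceacam10 at 0.32, and without nanocapsule library 3 Ceacam10 stood at 0.12. Ly6g stood at 0.36, Cd177 at 0.16 and Mmp9 at 0.08, and none of these 3 separated the 2 groups without overlap.

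PBS library 2 was the PBS lung with the highest neutrophil reference, and the differences were recomputed without it. Against the remaining 2 PBS lungs, Ckap4 stood at -0.36 after free anti-PD1 and at 0.50 after nanocapsules, and 4930438A08Rik at -0.44 and 0.57. In these 2 comparisons with PBS no direction changed for any of the 5, and none passed limma's test.

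The contrast that chose the genes was nanocapsule against anti-PD1. 4930438A08Rik was 2.06 times as high in the nanocapsule lungs by the ratio of group means, Ckap4 1.83 times, Ceacam10 1.78 times, Cep19 1.77 times and Ethe1 1.67 times. On the log2(TPM + 1) scale these differences were 1.01, 0.86, 0.82, 0.80 and 0.71. Ly6g stood at 0.92, Cd177 at 0.85 and Mmp9 at 0.84, all inside the range of the 5. In this contrast 14 genes were called (0.106% of tested genes), 9 of them higher in the nanocapsule lungs (0.0679%), and 8.73% of tested genes were higher without overlap. Without anti-PD1 library 1, anti-PD1 library 2 or nanocapsule library 2 limma called 0 genes, and without PBS library 2 it called 962. The higher ones that are not among the 5 were Cebpe, Elane, Cd177 and Padi4, all known in neutrophils. As this contrast chose the 5 genes, nothing is read from their place among the called. The median of all tested genes was -0.17 in this contrast, and after median-of-ratios scaling, which brings it near 0, the 5 genes stood between 0.91 and 1.20.

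**Figure D2:**
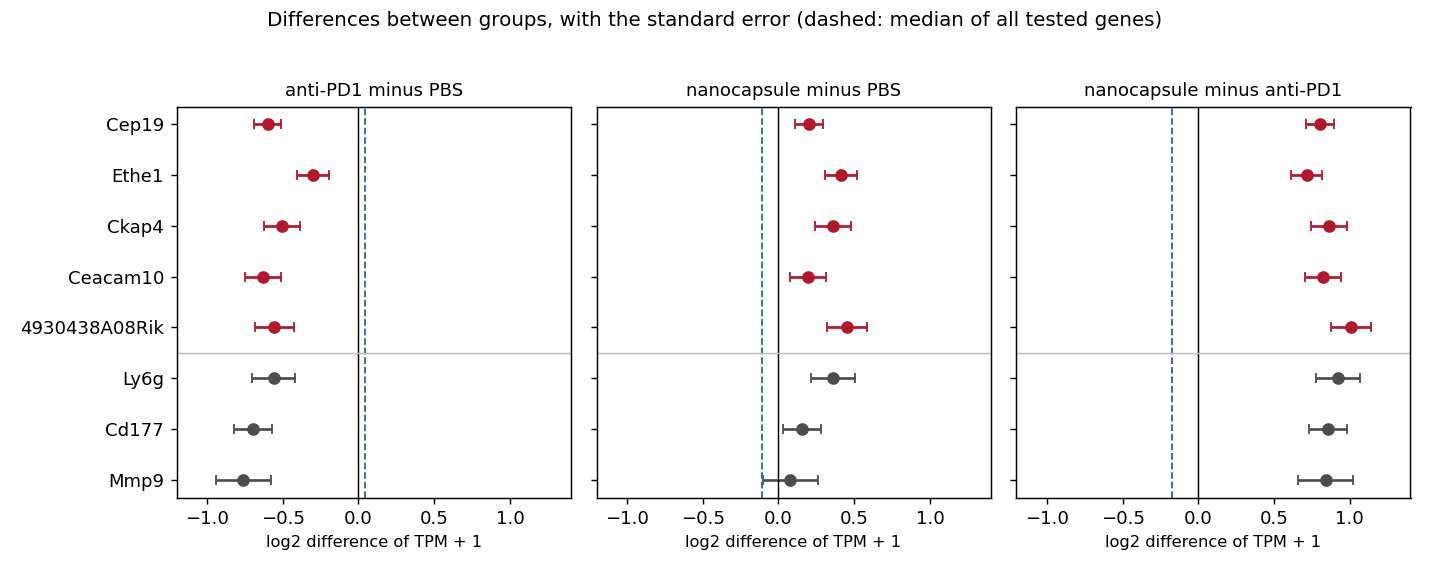
Difference between groups on the log2(TPM + 1) scale for the 5 genes (red) and the 3 reference genes (grey) in each of 3 comparisons, which share libraries. Bars are the standard error from limma, and the dashed line is the median of all tested genes. In the left panel Ethe1 lies nearest to 0 at -0.30; in the middle panel Mmp9 does at 0.08; in the right panel, which chose the 5 genes, all 8 lie between 0.71 and 1.01.

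How closely each gene followed Ly6g, Cd177 and Mmp9 was first described over all 9 libraries on the log2(TPM + 1) scale. These values include the group differences that chose the genes, and the 3 libraries of a group share its treatment, so no p is given. The 15 correlations ran from 0.735 to 0.977 by Pearson and from 0.75 to 0.933 by Spearman. Leaving out the 2 libraries farthest from the median of the reference gene, the Pearson values were 0.752 to 0.993. Over all tested genes the median correlation with each of the 5 lay between -0.383 and -0.288.

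Ckap4 followed Ly6g most closely of the 5, with r = 0.974, and it followed Cd177 with r = 0.97 and Mmp9 with r = 0.914. Ceacam10 followed its neighbour Cd177 with r = 0.977, Mmp9 with r = 0.937 and Ly6g with r = 0.93. Cep19 had r = 0.96 with Cd177, 0.949 with Ly6g and 0.932 with Mmp9. 4930438A08Rik had r = 0.954 with Cd177, 0.943 with Ly6g and 0.882 with Mmp9. Ethe1 was the loosest, with r = 0.923 for Ly6g, 0.839 for Cd177 and 0.735 for Mmp9. Each gene had its lowest value with Mmp9, except Ceacam10, whose lowest was with Ly6g.

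Without the anti-PD1 lungs, 6 libraries remained, and the correlations spread out. Ckap4 stood at 0.948 with Ly6g, 0.905 with Cd177 and 0.676 with Mmp9. Cep19 stood at 0.943, 0.815 and 0.709 in that order, and 4930438A08Rik at 0.848, 0.814 and 0.575. Ethe1 stood at 0.808 with Ly6g, 0.53 with Cd177 and 0.175 with Mmp9. Ceacam10 lay between 0.803 and 0.83 for the 3 reference genes.

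A second description used only the deviations of each library from its group mean, which leave out the differences between group means. The choice of the genes may still have favoured a small spread within groups. PBS library 2 was the highest PBS library for all 5 genes and for each reference gene. The correlations of deviations were not computed without it, so how far they rest on that library is not known. Over 9 deviations Ckap4 had r = 0.819 with Ly6g, 0.977 with Cd177 and 0.845 with Mmp9. For 4930438A08Rik the values were 0.576, 0.922 and 0.739 in that order, and for Ceacam10 they were 0.571, 0.805 and 0.757. Cep19 stood at 0.742, 0.593 and 0.889. Ethe1 stood at 0.549, 0.252 and 0.0989, so it was near Ceacam10 and 4930438A08Rik for Ly6g and below the other 4 for Cd177 and Mmp9. The median over all tested genes of the correlation of deviations with each of the 5 lay between -0.238 and 0.0842.

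The test of this relation was a slope. For each tested gene, limma fitted the change of log2(TPM + 1) per unit of the mean log2(TPM + 1) of Ly6g, Cd177 and Mmp9 between lungs of 1 group, with 5 residual degrees of freedom. The reference mean spanned 9.09 to 9.67 in the PBS lungs, 8.59 to 8.75 after free anti-PD1 and 9.39 to 9.62 after nanocapsules, so the PBS lungs held most of the spread. The slope was 0.73 (SE 0.19) for Ckap4, 0.65 (SE 0.27) for 4930438A08Rik, 0.58 (SE 0.24) for Ceacam10, 0.36 (SE 0.20) for Cep19 and 0.17 (SE 0.27) for Ethe1. The median slope of all tested genes was -0.23.

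None of the 5 slopes passed after adjustment by limma, with adjusted p of 0.204 for Ckap4, 0.322 for 4930438A08Rik, 0.324 for Ceacam10, 0.435 for Cep19 and 0.769 for Ethe1. Of all tested genes 6 were called (0.0453%), none with a slope above 0. The genes that make up the reference did not pass either. Their adjusted p from limma was 0.117 for Mmp9, 0.161 for Ly6g and 0.204 for Cd177. Not passing therefore cannot tell a gene that follows the reference from one that does not. At an unadjusted p under 0.05 with a slope above 0 there were 3 of the 5, Ckap4, Ceacam10 and 4930438A08Rik, and 4.07% of tested genes. Without PBS library 2 the slopes were 0.42 for Ckap4, 0.65 for 4930438A08Rik, 0.77 for Ceacam10, 0.36 for Cep19 and -0.24 for Ethe1, with standard errors of 0.45 to 0.63. The slope of Ethe1 therefore changed sign with 1 library, and no slope passed without it. With median-of-ratios scaling the slopes of Cep19 and Ethe1 were 0.57 (SE 0.14) and 0.46 (SE 0.20), and no slope of the 5 passed, with adjusted p from limma of 0.0652 for Ckap4 to 0.238 for Ethe1.

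**Figure D3:**
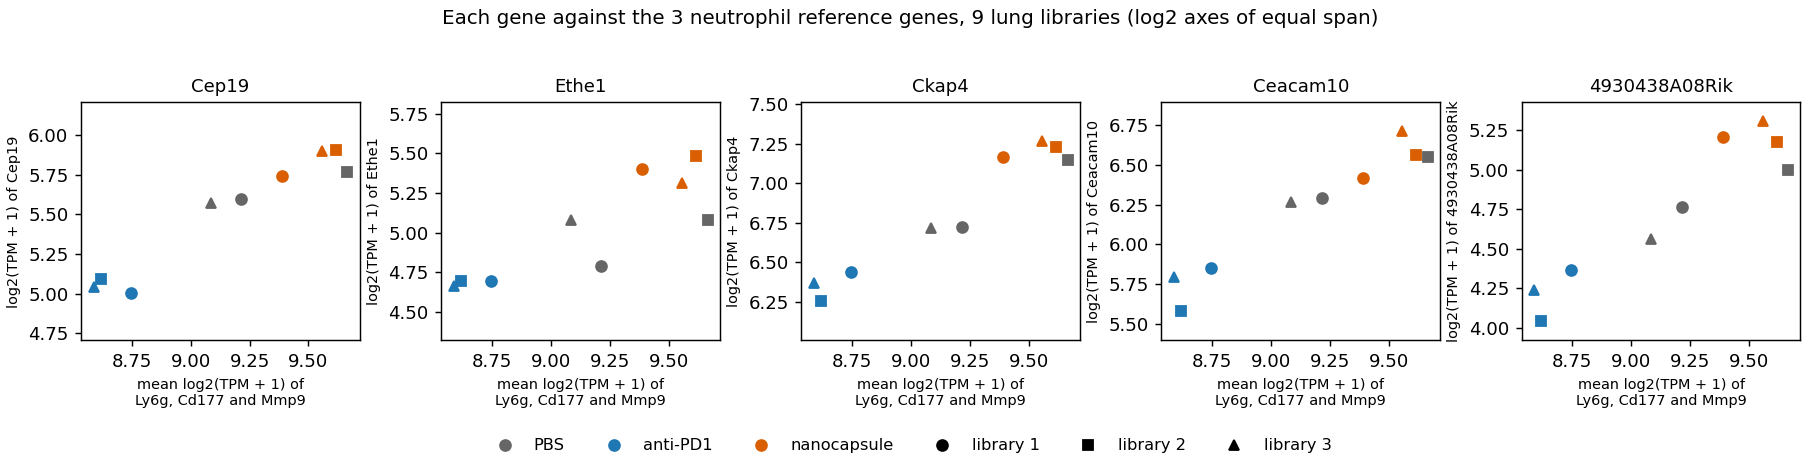
Level of each of the 5 genes (vertical axis, log2(TPM + 1)) against the mean log2(TPM + 1) of Ly6g, Cd177 and Mmp9 (horizontal axis), 1 point per lung library, coloured by group and shaped by library number. All vertical axes span the same number of log2 units. The anti-PD1 lungs lie at the lower left in each panel; PBS library 2 has the highest reference mean, 9.67, yet lies below all nanocapsule lungs for Ethe1, Ckap4 and 4930438A08Rik.

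The 5 genes were also set against each reference gene as a ratio, the TPM of the gene per 100 TPM of the reference. Per 100 TPM of Ly6g, Ckap4 stood at 22.6 ± 0.490 in the PBS, 23.4 ± 2.24 in the anti-PD1 and 22.6 ± 2.12 in the nanocapsule lungs (SD, n = 3 each), and Cep19 at 9.65 ± 1.09, 9.29 ± 0.966 and 8.64 ± 0.631. The groups overlapped for each of the 5 genes per Ly6g in all 3 comparisons, while 60.7% of genes did not overlap between anti-PD1 and PBS lungs and 24.9% did not between nanocapsule and PBS lungs. Nanocapsule and anti-PD1 lungs also overlapped for 5 of 5 genes per Mmp9 and 4 of 5 per Cd177. As background, 89.8% of 13247 genes did not overlap between these groups per Ly6g, 89.8% per Cd177 and 88.2% per Mmp9. The choosing contrast enters these ratios, so nothing is read from them.

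The exception was 4930438A08Rik per 100 TPM of Cd177, at 4.95 ± 0.254 in the PBS, 5.36 ± 0.212 in the anti-PD1 and 6.14 ± 0.290 in the nanocapsule lungs. The nanocapsule lungs lay above both other groups, and 0.083% of genes were higher per Cd177 without overlap than in the anti-PD1 lungs, the contrast that chose the gene. Against PBS, Ckap4 per 100 TPM of Cd177 was higher without overlap in both treated groups, at 24.6 ± 0.384 with anti-PD1 and 24.9 ± 0.505 with nanocapsules against 21.7 ± 0.725. As background per Cd177, 75.5% of genes were higher without overlap in the anti-PD1 than in the PBS lungs, and 0.415% in the nanocapsule than in the PBS lungs. Per 100 TPM of Mmp9, 4930438A08Rik was also higher without overlap in the nanocapsule than in the PBS lungs, at 3.62 ± 0.511 against 2.76 ± 0.308. Per Mmp9, 0.415% of genes showed that pattern. The choice of the genes favoured high values in the nanocapsule lungs, so nothing is read from these ratios.

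A pair of classical neutrophil genes was set against Ly6g in the same way. Elane, the neutrophil elastase of primary granules, stood at 2.40 ± 0.497 per 100 TPM of Ly6g in the PBS, 1.54 ± 0.235 in the anti-PD1 and 2.10 ± 0.157 in the nanocapsule lungs. The anti-PD1 lungs were below the PBS lungs without overlap, and 0.272% of genes showed that pattern. Elane was itself called in the contrast of nanocapsule and anti-PD1 lungs, which favours low values in these anti-PD1 lungs. Nothing is therefore read from its ratio. S100a8 per Ly6g was higher in the anti-PD1 than in the PBS lungs without overlap, as were 60.4% of genes.

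Among themselves the 5 genes gave 10 pairs, with r from 0.845 to 0.986 over 9 libraries. The highest was Ckap4 with 4930438A08Rik and the lowest was Ethe1 with Ceacam10. All 10 values include the group differences that chose the genes, so nothing is read from them. Within groups, over the deviations, Ckap4, Ceacam10 and 4930438A08Rik stayed close, at 0.851 to 0.872. Ethe1 did not follow them: it stood at 0.357 with Ckap4, 0.0774 with Ceacam10 and -0.0824 with 4930438A08Rik. Cep19 was intermediate, at 0.669 with Ckap4 and 0.394 with 4930438A08Rik. PBS library 2 was the highest PBS library for all 5 genes, and the values within groups were not computed without it.

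For each of the 5, the named genes of at least 5 TPM whose pattern over the 9 libraries was most like it were listed by Pearson r. These values include the group differences that chose the 5 genes, and Cebpe and Padi4 were themselves called in that contrast. Nothing is therefore read from which genes were nearest. Cep19 was nearest to Cebpe, the transcription factor of late granulocyte maturation, with r = 0.977, then to Glrx, Mettl9, Ppp1r18 and Coro1a. Ethe1 was nearest to Agpat2, an enzyme of phosphatidic acid synthesis, with r = 0.951, then to Prelid1, the primary granule protease Prtn3, the methionine sulfoxide reductase Msra and the peroxiredoxin Prdx5. Ckap4 was nearest to Sri, the calcium-binding protein sorcin, with r = 0.992, then to Sept5, Tkt, C1rl and Pgk1. Ceacam10 was nearest to Fmo5, a flavin monooxygenase, with r = 0.994, then to Pde2a, Gapdh, Uhrf1bp1l and Padi4, the enzyme that citrullinates histones in neutrophils. 4930438A08Rik was nearest to Ckap4 itself, with r = 0.986, then to Sept5, St3gal5, Tkt and Sri.

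The nearest genes held up unevenly within groups. Over the deviations Ceacam10 kept r = 0.97 with Fmo5 and Ckap4 kept r = 0.965 with Sri. Cep19 stood at 0.619 with Cebpe, and Ethe1 at 0.235 with Agpat2. Sept5, Tkt and Sri were listed for both Ckap4 and 4930438A08Rik.

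On chromosome 7, Ethe1, Cd177 and Ceacam10 lie within 197.1 kb. Since the contrast between nanocapsule and anti-PD1 lungs chose Ethe1 and Ceacam10, nothing is read from their closeness. A further 15 tested genes lay within 250 kb of Ethe1 or Ceacam10, and 14 of them stood lower in the nanocapsule than in the anti-PD1 lungs, with a median of -0.28. Phldb3, which begins 1.84 kb after Ethe1, stood at -0.39, and Xrcc1, a DNA repair gene 14.1 kb before Ethe1, at -0.47. Cd79a, a B cell receptor gene 113 kb from Ceacam10, had the lowest value, -0.98. None of the 15 was called, against 0.106% of all tested genes.

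**Figure D4:**
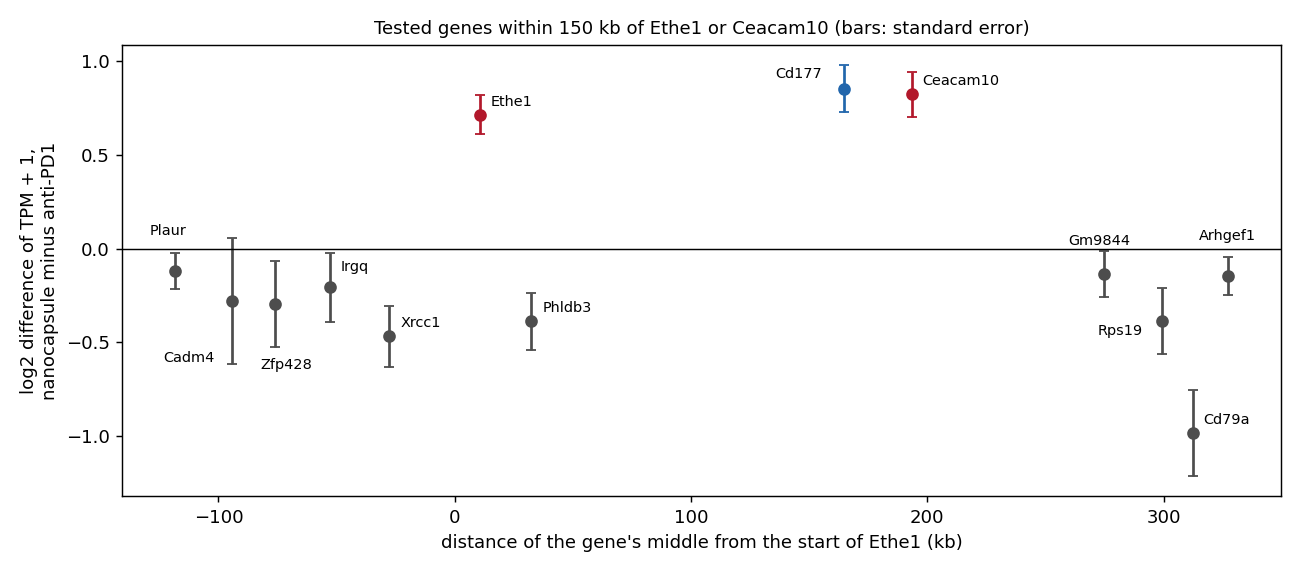
Difference between nanocapsule and anti-PD1 lungs on the log2(TPM + 1) scale for every tested gene within 150 kb of Ethe1 or Ceacam10, by distance of the gene's middle from the start of Ethe1 in kb. Bars are standard errors; red marks Ethe1 and Ceacam10, which this contrast chose, and blue the reference gene Cd177. Ethe1, Cd177 and Ceacam10 lie between 0.71 and 0.85, and the other 10 genes shown lie below 0.

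No tested neighbour of the other 3 genes was called. Pigx, which shares the stretch shown above with Cep19, was measured at 77.2 TPM in the PBS, 75.6 TPM in the anti-PD1 and 85.7 TPM in the nanocapsule lungs. Its difference between nanocapsule and anti-PD1 lungs was 0.18, with an adjusted p of 0.203 from limma, beside 0.80 for Cep19. Tcp11l2, 42.6 kb from Ckap4, stood higher by 0.36 and followed Ckap4 with r = 0.907 over the 9 libraries. Around 4930438A08Rik, 12 tested genes had a median of -0.20, and 4 of them stood higher.

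Reads of a gene can be shared with similar or overlapping genes, which the table cannot show. No stretch of 31 bases in the annotated transcripts of Cep19, Ckap4 and 4930438A08Rik occurred in a transcript of another gene. In Ethe1 4.75% of such stretches were shared, the 69 that it has in common with Zfp575, which overlaps its start and did not exceed 0.132 TPM in any library. In Ceacam10 5.29% were shared, mainly with Ceacam1 and Ceacam2, and in the reference gene Cd177 6.93%, mainly with Gm4763 and BC049730. In the reference gene Ly6g 9.55% were shared, the most with Ly6i, Gm28116 and Gm10238, and in Mmp9 none.

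The known partners of the 5 genes were then examined from lists of their pathways. Ceacam10 belongs to a family of 15 listed genes, of which 3 passed the filter. Ceacam1, an inhibitory adhesion receptor of many cell types, was measured at 66.3 TPM in the PBS, 48.3 TPM in the anti-PD1 and 76.2 TPM in the nanocapsule lungs. It stood higher by 0.64 in the nanocapsule than in the anti-PD1 lungs, with an adjusted p of 0.058 from limma. Ceacam18 was near the filter, with a mean of 1.13 TPM.

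Of the genes of sulfide oxidation and production other than Ethe1, 11 were tested, and 5 stood higher and 6 lower in the nanocapsule than in the anti-PD1 lungs, with none called and a median of -0.24. Sqrdl, the sulfide quinone oxidoreductase that acts just before Ethe1, stood at 75.5 TPM in the anti-PD1 and 109 TPM in the nanocapsule lungs, a difference of 0.52 with an adjusted p of 0.058 from limma. Gclm, the modifier subunit of glutathione synthesis, stood higher by 0.43. Suox, the sulfite oxidase that acts after Ethe1, stood lower by 0.40, and the rhodanese gene Tst differed by 0.07.

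Of the genes that shape sheets and tubules of the endoplasmic reticulum other than Ckap4, 14 were tested, and 3 stood higher and 11 lower in the same contrast, with none called and a median of -0.20. Rrbp1 and Ktn1, sheet proteins as Ckap4 is, stood lower by 0.27 and 0.64. The tubule proteins Rtn4 and Rtn3 each stood at 0.08. Of the centriolar and ciliary genes linked to Cep19, 17 were tested, and 3 stood higher and 14 lower, with none called and a median of -0.16. Fgfr1op, which recruits Cep19 to the centriole, and Rabl2, which Cep19 brings to the cilium, stood lower by 0.51 and 0.76. The median over all tested genes in this contrast, -0.17, lies near the medians of these 3 lists.

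Lists of cell type markers stood with the 5 genes or against them, and their part in the results was not tested. The list correlations given here and in the next paragraph run over all 9 libraries. They include the group differences that chose the genes, so nothing is read from them, and they were not computed within groups. Of 19 neutrophil granule and precursor genes, 16 stood higher and 3 lower in the nanocapsule than in the anti-PD1 lungs, with 3 called and a median of 0.88. Of 19 mature neutrophil genes, 18 stood higher and none was called, with a median of 0.43. The median correlation of the granule list with each of the 5 genes lay between 0.821 and 0.905, and that of the mature list between 0.704 and 0.831.

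Endothelial genes ran the other way. All 15 stood lower in the nanocapsule than in the anti-PD1 lungs, with a median of -1.13 and none called, and their summed level was 105.5 to 212.8 TPM in the PBS, 311 to 456.4 TPM in the anti-PD1 and 109.6 to 194.4 TPM in the nanocapsule lungs. All 14 alveolar macrophage genes stood lower too, with summed levels of 2042 to 3254, 3309 to 3984 and 1834 to 3044 TPM in that order of groups. The summed level of 14 B cell genes was 456.9 to 859.8, 471.3 to 816.2 and 279 to 385.2 TPM, and that of 15 T cell genes 396.8 to 845, 366.3 to 1126 and 327.5 to 380 TPM. The median correlation with each of the 5 genes was -0.837 to -0.652 for the endothelial list and -0.753 to -0.682 for the alveolar macrophage list. All 5 tested erythroid genes stood higher in the anti-PD1 than in the PBS lungs, with a median of 1.42 and none called, and their summed level was 3501 to 13250 TPM in the PBS, 12540 to 25880 TPM in the anti-PD1 and 3899 to 21040 TPM in the nanocapsule lungs. All 12 tested airway genes stood lower in the nanocapsule than in the anti-PD1 lungs, with none called and a median of -0.54. The median correlation of these 2 lists with each of the 5 genes was -0.575 to -0.341 and -0.61 to -0.41. For 14 monocyte and interstitial macrophage genes that median was -0.0991 to 0.066. No gene of the neutrophil, endothelial, macrophage, B cell and T cell lists was at 0 TPM in any library.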

How the data were processed

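The authors deposited 1 table of gene levels in TPM for 9 mouse lung libraries; per the submitters' processing notes the genome build was GRCm38 and DESeq2 was among the tools, with no versions or roles given. Aligner and depth are not given in the sources used here. Values entered as log2(TPM + 1), for the 13248 genes that reached 1 TPM in 3 or more libraries. Groups were compared with limma 3.58.1 in R 4.3.3 (all 9 libraries, 6 residual degrees of freedom, variance trend, two-sided, Benjamini-Hochberg over all tested genes, called under 0.05); the slope fit added the reference mean and left 5. Descriptions used Python 3.11.15. The method was tested on simulated data. The 5 genes and all lists were chosen with earlier results of these data known. Named were the 5, their reference genes, the 5 most correlated genes of each, tested neighbours within 250 kb, leading genes of each list and those next to the threshold. Promoter sequences are from RefSeq (GRCm38.p6) and positions from GENCODE M21. Alternatives changed the pseudocount, filter, scaling, variance model, samples, reference and replicate block. A neighbour on chromosome 7 is not reported here.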

Additional observations from a re-analysis of the deposited data

How the results depend on the processing

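The differences of the 5 genes kept their direction in all 3 comparisons under every alternative and every left-out library. Nanocapsule against anti-PD1 chose the genes, so nothing is read from the kept direction there. Their place among the called genes of that contrast did change. None of the 5 was called without the variance trend, and with 1 library left out each was called in 2 to 4 of 9 fits. Over the settings other than a left-out library the slope of Ethe1 lay between 0.01 (replicate block) and 0.64 (no group term). With 1 library left out the slope of Ethe1 ran from -0.24 (without PBS library 2) to 0.50 (without PBS library 3), and no slope of the 5 was called except with no group term, where all 5 were and 2858 genes in all, from a fit that includes the differences between groups. Counts of called genes depended strongly on the settings. For anti-PD1 against PBS, nanocapsule against PBS, nanocapsule against anti-PD1 and the slope they were 1, 1, 14 and 6 as reported, 0, 2, 15 and 8 with a pseudocount of 0.1, 1, 2, 14 and 6 with 0.5, 1, 0, 3 and 0 with no filter, 1, 3, 197 and 6 with a mean of at least 5 TPM, 0, 4, 22 and 1 with median-of-ratios scaling, 0, 0, 75 and 0 with quantile normalization, 0, 4, 72 and 0 renormalized without S100a8 and S100a9, 0, 2, 2 and 0 without the variance trend, and 1, 4, 79 and 4 with the robust variance. With only the 2 groups compared, 476 genes were called between nanocapsule and anti-PD1 lungs. The slope called 0 genes on Ly6g, Cd177, Mmp9, Ly6g with Mmp9, or the granule list as reference and 4 on S100a8 with S100a9. Leaving out 1 library gave 0 to 3, 0 to 4, 0 to 962 and 0 to 22 calls; for nanocapsule against anti-PD1 0 came without anti-PD1 library 1, anti-PD1 library 2 or nanocapsule library 2, and 962 without PBS library 2. Whether the replicate numbers pair the libraries is not known from the labels, and 9 correlations cannot decide it. Of 9 same-numbered pairs, 3 had deviations correlated above 0.1, with a range of -0.182 to 0.279. With the replicate block the counts were 1, 5, 1095 and 0. The cause of these changes was not tested. With no counts in the table, what depth limits is unknown.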
